A study of Mus musculus with 18 samples.

Results

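The genes described here handle heme and iron. They are Hmox1, Blvra, Blvrb, Fth1, Ftl1, Slc40a1, Tfrc, Slc11a1, Slc11a2 and Steap4, 10 of the 53465 genes in the deposited count table, and each symbol matched 1 row. They were followed in microglia and macrophages sorted from the contused spinal cord of female C57BL/6J mice aged 8 to 10 weeks. Each mouse received an intraspinal injection of PBS, of 100 ng of rIL-13 or of 100 ng of rIL-4 at 48 h after spinal cord injury (SCI), and its cells were taken 24 h later. PBS was given to mice 1, 2 and 3, rIL-13 to mice 5, 6 and 7, and rIL-4 to mice 8, 9 and 10. Each mouse gave 1 microglia library and 1 macrophage library, so 9 mice gave 18 libraries and every group held 3. All mice were injured and injected, so the PBS groups stand for injured cord with vehicle and no group stands for uninjured cord. Both cell types carried CD11b and F4/80 in the sort, and the level of CD45 (low in microglia, high in macrophages) set them apart.

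A contusion bleeds, and phagocytes take up red cells and hemoglobin. Heme oxygenase 1, from Hmox1, opens the heme ring and frees iron, carbon monoxide and biliverdin, and the biliverdin reductases from Blvra and Blvrb turn biliverdin into bilirubin. Freed iron is kept in ferritin, a shell of heavy (Fth1) and light (Ftl1) chains, or leaves the cell through ferroportin (Slc40a1), while the transferrin receptor (Tfrc), the divalent metal transporters from Slc11a1 and Slc11a2 and the metalloreductase from Steap4 serve its uptake and movement.

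Slc40a1, Fth1, Ftl1 and Tfrc can also be controlled after transcription, through a stem-loop in the mRNA called the iron-responsive element, to which iron regulatory proteins bind when iron is scarce. In a 5′ UTR the bound protein blocks translation, and in the 3′ UTR of Tfrc it protects the mRNA from decay. The elements are shown because an mRNA level reports on these genes in different ways. The UTRs of the GENCODE M21 transcripts of GRCm38 were searched, on the transcript strand, for a bulged C, a stem of 5 bases, the loop CAGTGN and a second stem of 5 bases that pairs with the first, with G-T pairs allowed. Capitals mark the loop, and each sequence runs 5′ to 3′ over 30 bases.
Slc40a1, 5′ UTR, chr1:45925464-45925493, minus strand: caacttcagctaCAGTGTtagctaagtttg
Fth1, 5′ UTR, chr19:9982732-9982761, plus strand: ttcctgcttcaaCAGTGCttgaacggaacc
Ftl1, 5′ UTR, chr7:45459778-45459807, minus strand: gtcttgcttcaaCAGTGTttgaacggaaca
Tfrc, 3′ UTR, chr16:32631219-32631248, plus strand: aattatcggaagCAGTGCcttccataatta
Tfrc, 3′ UTR, chr16:32631598-32631627, plus strand: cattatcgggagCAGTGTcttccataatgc
Tfrc, 3′ UTR, chr16:32631663-32631692, plus strand: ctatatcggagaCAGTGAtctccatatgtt
Tfrc, 3′ UTR, chr16:32631710-32631739, plus strand: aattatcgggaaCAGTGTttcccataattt

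Slc40a1, Fth1 and Ftl1 each held 1 such shape in the 5′ UTR, and Tfrc held 4 in the 3′ UTR. Across the annotation it was found in 31 of 20899 genes with a 5′ UTR (0.148%) and in 129 of 21685 genes with a 3′ UTR (0.595%). The other 6 genes held no match, which says only that this shape is not in their annotated UTRs. These data measure mRNA, so ferritin and ferroportin translation was not measured.

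The libraries held between 35961305 and 45849829 counts, with a median of 39570356. Genes with at least 1 count numbered 17620 to 18371 in PBS microglia, 16132 to 16832 in rIL-13 microglia and 15193 to 15626 in rIL-4 microglia, and 16867 to 18174 over the macrophage libraries. The part of this in the microglia values, such as Steap4 and Bmp6 at 0 counts in rIL-4 libraries, was not tested. The summed level of 10 microglia markers (P2ry12, Tmem119, Sall1 and others) was 6550 to 11890 CPM (counts scaled to library size) in PBS microglia and 2943 to 4339 in PBS macrophages, and 10 monocyte and macrophage markers gave 3336 to 5208 and 27196 to 30130 CPM. Under PBS each label was thus met, though neither population lacked the other's markers. With the cytokines the microglia libraries stood less apart, since their microglia markers summed to 2902 to 7625 CPM (rIL-13) and 2712 to 4618 (rIL-4), and their monocyte and macrophage markers to 18899 to 21566 and 34174 to 48236. In rIL-4 microglia the first sum overlapped that of PBS macrophages and the second lay above it. Within the same treatment microglia libraries kept the higher microglia sum and the lower monocyte and macrophage sum. Microglia libraries also carried fibroblast and pericyte markers, with a summed 233 to 8260 CPM over the 9 libraries against at most 9.70 in macrophages. The hemoglobin genes and other erythroid markers summed to 90.2 to 179 CPM in PBS microglia and to at most 128 in every other group. The part of these cells in the results below was not tested. In sorted bulk libraries, fewer cells of a type and less RNA per cell cannot be told apart.

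All 10 genes passed the low-count filter in every comparison. On CPM per kilobase of the main transcript, the scale on which different genes may be compared, the order in PBS macrophages ran from Ftl1 (19188 ± 906, SD, n = 3) through Fth1 (8599 ± 1910), Hmox1 (1991 ± 233) and Slc11a1 (295 ± 19.2) to Blvra (86.2 ± 6.14) and Blvrb (84.1 ± 19.4). Slc11a2 (9.74 ± 0.961), Slc40a1 (7.74 ± 1.34), Tfrc (4.77 ± 1.41) and Steap4 (1.97 ± 1.41) were far lower. The libraries of Blvra and Blvrb overlapped, as did the lowest Slc11a2 library and the highest Slc40a1 library. PBS microglia kept the first 6 places, at Ftl1 7209 ± 527, Fth1 3220 ± 549, Hmox1 917 ± 124, Slc11a1 72.9 ± 4.90, Blvra 48.7 ± 13.8 and Blvrb 43.9 ± 8.01 CPM per kilobase. Slc40a1 followed at 31.8 ± 16.6, above Tfrc (8.40 ± 4.44), Slc11a2 (6.85 ± 1.05) and Steap4 (2.42 ± 0.797). Among 16511 genes ranked by this level in PBS macrophages, Ftl1 was at place 3, Fth1 at 9 and Hmox1 at 25. The plot of CPM by library shows all 10 genes.

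**Figure D1:**
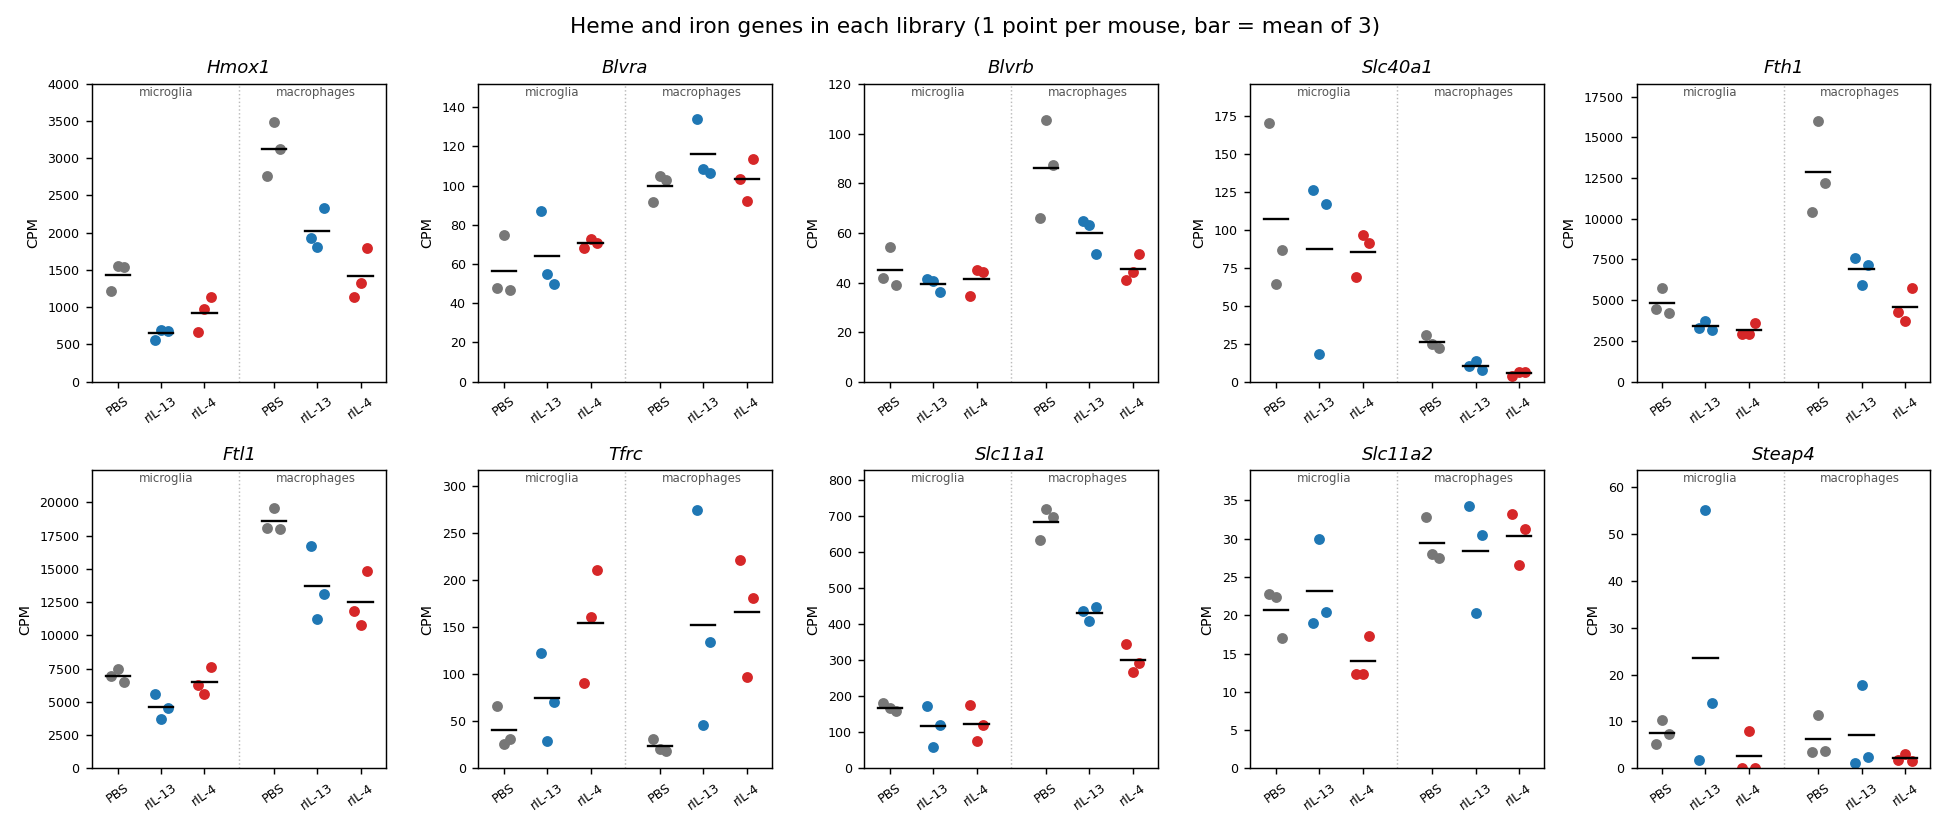
Level of each gene (y axis, CPM, linear from 0) in each library, grouped by treatment and cell type (x axis). Points are mice and bars are means of 3. Fth1, Hmox1 and Slc11a1 stand highest in PBS macrophages, and Tfrc rises from 18.1 to 31.1 CPM in PBS macrophages to 97.2 to 221 with rIL-4.

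The first question was how each cytokine moved these genes in macrophages. With rIL-4, 6 of the 10 genes were differentially expressed (DE) against PBS at an adjusted p under 0.05 by edgeR's quasi-likelihood test with Benjamini-Hochberg adjustment over 13606 genes, where 14.0% of all genes were DE. Of the 10 genes, 5 fell (Hmox1, Blvrb, Fth1, Slc40a1 and Slc11a1) and 1 rose (Tfrc), beside 7.20% of all genes lower and 6.77% higher. The median log2 fold change of the 10 genes was -1.03, against 0.02 over all genes tested. In 8 of the 10 genes the 3 rIL-4 libraries did not overlap the 3 PBS libraries, as did those of 34.7% of all genes. The count of 6 held in each of the 6 fits that left out 1 mouse.

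With rIL-13, 3 of the 10 genes were DE in macrophages, where 4.19% of all genes were. Tfrc rose, and Slc40a1 and Slc11a1 fell, beside 2.53% of all genes higher and 1.66% lower. The median log2 fold change was -0.48, against 0.00 over all genes, and the groups did not overlap in 8 of the 10 genes (24.5% of all genes). These calls were seldom kept in fits with fewer libraries. Without mouse 1, 2, 3, 5 or 7, none of the 10 genes was DE by edgeR, and without mouse 6 the count was 2, while every log2 fold change of the 3 genes kept its sign. Between rIL-4 and rIL-13 no gene of the 10 was DE by edgeR (0.250% of all genes were, with 0.0294% higher and 0.220% lower with rIL-4), although 5 had an unadjusted p under 0.05, as did 1513 of all 13606 genes, and DESeq2 called 2, Slc40a1 and Slc11a1, lower with rIL-4, among 420 genes in all. The 2 cytokine groups did not overlap in 5 of the 10 genes (14.4% of all genes). The comparisons of the cytokines with PBS share the PBS libraries.

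In microglia none of the 10 genes was DE by edgeR with either cytokine. The shifts of both marker sums given above accompany every microglia value against PBS below, and their part in them was not tested. With rIL-4, 3 of the 10 had an unadjusted p under 0.05, as did 2553 of all 15566 genes. DESeq2 called 3 (Hmox1 and Fth1 lower, Tfrc higher) among 1215 genes in all, while 2.22% of all genes were DE by edgeR (1.33% higher, 0.887% lower). With rIL-13, 3 had an unadjusted p under 0.05, as did 1208 of all genes. DESeq2 called 2 (Hmox1 and Ftl1 lower) among 322 in all, against 0.366% of all genes DE by edgeR (0.283% higher, 0.0835% lower). Between rIL-4 and rIL-13, 3 had an unadjusted p under 0.05, as did 1773 of all genes, and DESeq2 called 0 of the 10 and 557 in all, with 0.0385% of all genes DE by edgeR. The groups did not overlap in 3 of the 10 genes with rIL-4 (25.9% of all genes) in 3 with rIL-13 (16.0%) and in 2 between the cytokines (12.3%).

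**Figure D2:**
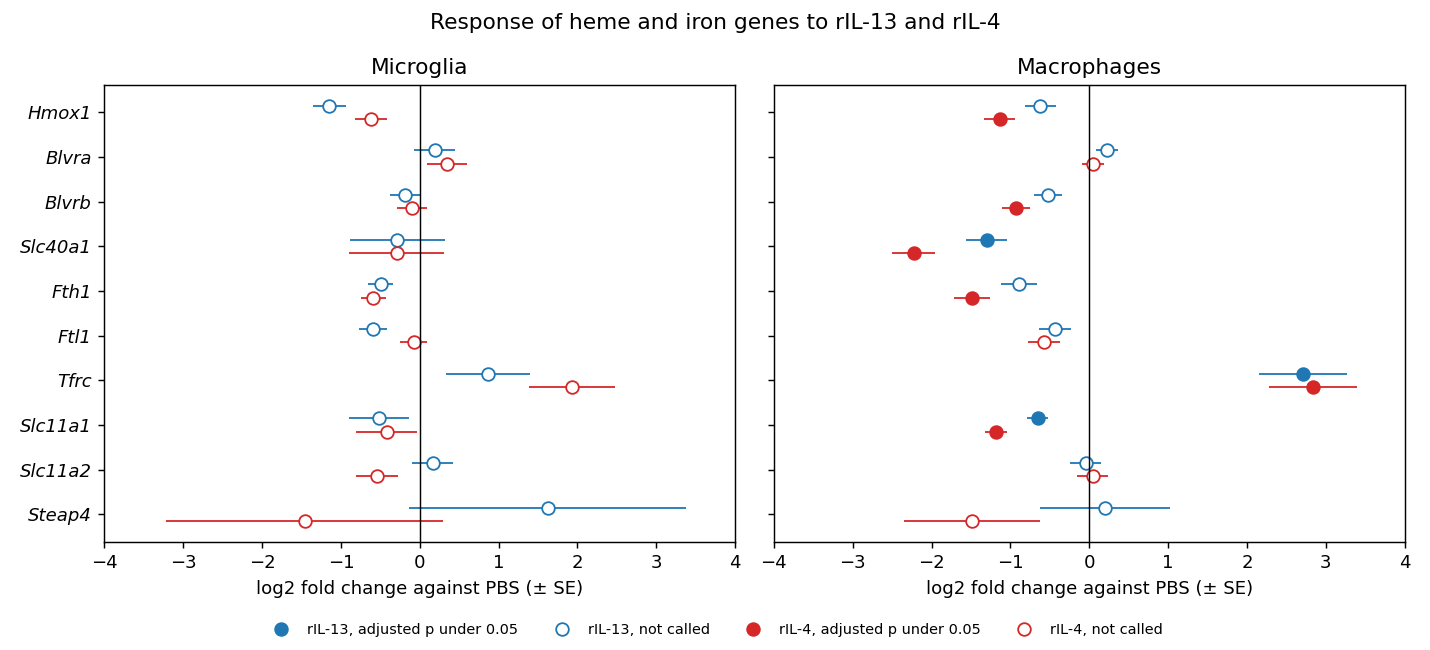
Log2 fold change against PBS (x axis, points, with SE as bars) of each gene (y axis) in microglia on the left and macrophages on the right. Filled points passed an adjusted p of 0.05. The 6 filled rIL-4 points and the 3 filled rIL-13 points all lie in macrophages and none in microglia.

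Heme breakdown came first in the order of the pathway. Hmox1 lies at chr8:75093621-75100589, Blvra at chr2:127070665-127097084 and Blvrb at chr7:27447978-27466144 (GRCm38). Hmox1 was at 2761, 3491 and 3119 CPM in the 3 PBS macrophage libraries, at 1931, 1807 and 2330 with rIL-13 and at 1141, 1330 and 1800 with rIL-4. Both cytokine groups lay wholly below PBS, and rIL-4 lay wholly below rIL-13. With rIL-4 it fell by 1.14 on the log2 scale (SE 0.19, edgeR adjusted p = 0.00373), and with rIL-13 its log2 fold change was -0.62 (SE 0.19, adjusted p = 0.115). DESeq2 did call it lower with rIL-13 (DESeq2 adjusted p = 0.0281). In microglia Hmox1 was at 1215, 1557 and 1544 CPM with PBS, at 563, 692 and 687 with rIL-13 and at 663, 971 and 1133 with rIL-4. Both cytokine groups were again below every PBS library, here with rIL-13 the lower in mean. The log2 fold change was -1.15 with rIL-13 (SE 0.21, edgeR adjusted p = 0.0710) and -0.62 with rIL-4 (SE 0.21, adjusted p = 0.175). The rIL-13 value in microglia passed the threshold when all 18 libraries were fitted together, with no low-count filter, with a filter that asked each library for 10 counts, and by DESeq2. In the 6 fits without 1 mouse it did not pass.

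Blvrb, which also reduces flavins, fell in macrophages with rIL-4. It was at 66.0, 106 and 87.5 CPM with PBS, at 65.0, 63.3 and 51.5 with rIL-13 and at 40.9, 44.1 and 51.4 with rIL-4. The rIL-4 libraries lay below all others, the highest of them by a narrow margin, and the log2 fold change was -0.93 against PBS (SE 0.18, edgeR adjusted p = 0.00726). In microglia Blvrb lay between 34.6 and 54.5 CPM in all 9 libraries. Blvra, the main biliverdin reductase of adult tissue, did not pass the test with either cytokine in either cell type. Its macrophage libraries were at 91.8 to 105 CPM with PBS, 106 to 134 with rIL-13, just above PBS without overlap, and 92.4 to 114 with rIL-4. Its log2 fold change with rIL-4 was 0.05 (SE 0.14), a value whose sign turned under the size factors of DESeq2.

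The 2 ferritin chains were among the most abundant mRNAs, and the heavy chain fell in rIL-4 macrophages. Fth1 lies at chr19:9980598-9985098 and Ftl1 at chr7:45457944-45459884. Fth1 was at 10386, 15974 and 12181 CPM with PBS, at 7604, 5920 and 7145 with rIL-13 and at 4285, 3720 and 5722 with rIL-4. The 3 groups did not overlap. The log2 fold change was -1.49 with rIL-4 (SE 0.23, edgeR adjusted p = 0.00212) and -0.89 with rIL-13 (SE 0.22, adjusted p = 0.0545, not DE). The rIL-13 value did pass by DESeq2 (adjusted p = 0.00126), with no low-count filter and with all 18 libraries in 1 model. Ftl1 was at 18115, 19585 and 18021 CPM with PBS, at 16744, 11210 and 13143 with rIL-13 and at 11832, 10768 and 14881 with rIL-4. Both cytokine groups lay below PBS, but the log2 fold changes of -0.57 with rIL-4 (SE 0.20, edgeR adjusted p = 0.0925) and -0.43 with rIL-13 (SE 0.20, adjusted p = 0.307) were not DE. DESeq2 did call Ftl1 lower with rIL-4.

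Together Fth1 and Ftl1 took 2.92% ± 0.247 (SD, n = 3) of all counts in PBS macrophages, 1.77% ± 0.276 with rIL-13 and 1.54% ± 0.222 with rIL-4. In microglia the shares were 1.34% ± 0.191, 0.934% ± 0.0455 and 1.00% ± 0.0888. In both cell types both cytokine groups lay below PBS without overlap in this share, at the smallest p that an exact permutation test of 3 mice against 3 allows (two-sided p = 0.1). The share is of raw counts, without the scaling between libraries that CPM used. In CPM, Fth1 and Ftl1 were at 3613 and 7627 in rIL-4 microglia of mouse 10. They were at 4237 and 6469 in PBS microglia of mouse 3, so on that scale the sums of these 2 microglia groups overlapped. The 2 cytokine groups overlapped in both cell types (exact permutation p = 0.4).

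The ratio of Fth1 to Ftl1 counts showed a further difference. In macrophages it was 0.573, 0.816 and 0.676 with PBS, 0.454, 0.528 and 0.544 with rIL-13 and 0.362, 0.346 and 0.384 with rIL-4, so the 3 groups formed separate steps. In microglia it was 0.637, 0.768 and 0.655 with PBS and 0.467, 0.520 and 0.474 with rIL-4, again apart. With rIL-13 microglia gave 0.595, 0.990 and 0.700, a range that took in all 3 PBS values, and the highest came from mouse 6. The exact permutation p was 0.1, the smallest possible, for rIL-4 against PBS in both cell types, for rIL-4 against rIL-13 in both and for rIL-13 against PBS in macrophages, and it was 0.7 for rIL-13 against PBS in microglia. The 6 ratio comparisons were not adjusted for their number, and no adjustment could bring them under 0.05. RSEM shares reads between near-identical copies, and Ftl1-ps1, an Ftl1 copy, held 2305 to 10000 counts per library, so Ftl1 levels are uncertain by that much. Every other listed ferritin copy held at most 10 counts.

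**Figure D3:**
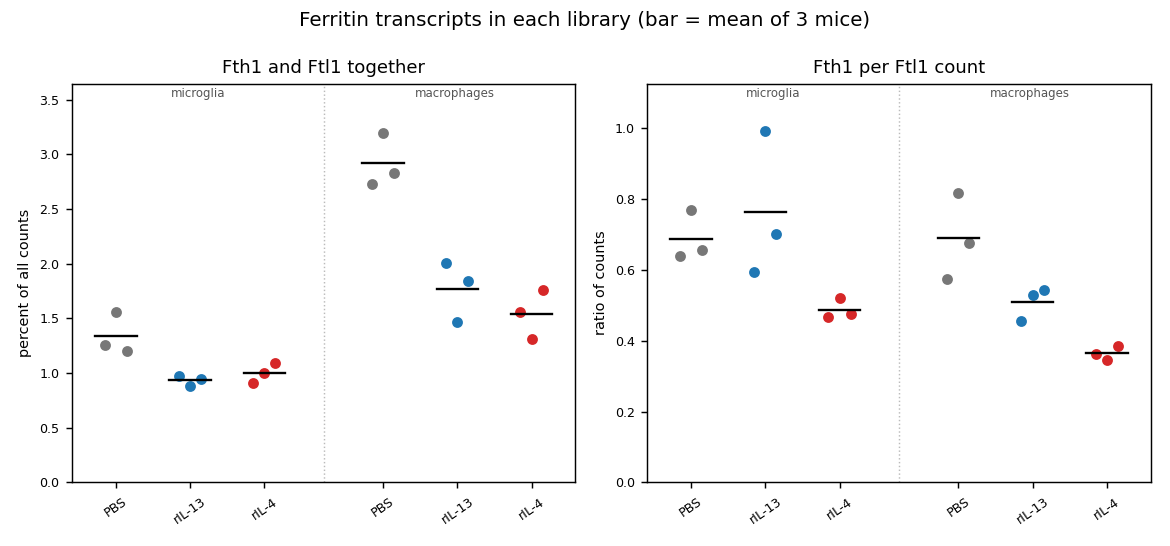
Share of all counts taken by Fth1 and Ftl1 together (left, percent) and the ratio of Fth1 to Ftl1 counts (right) in each library. Points are mice and bars are means of 3. The macrophage ratios step down from 0.573 to 0.816 with PBS, through 0.454 to 0.544 with rIL-13, to 0.346 to 0.384 with rIL-4.

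In microglia Fth1 was at 4446, 5750 and 4237 CPM with PBS, at 3313, 3697 and 3190 with rIL-13 and at 2942, 2906 and 3613 with rIL-4. Both cytokine groups lay below every PBS library. The log2 fold change was -0.59 with rIL-4 (SE 0.16, edgeR adjusted p = 0.101) and -0.49 with rIL-13 (SE 0.16, adjusted p = 0.414). Ftl1 was at 6469 to 7490 CPM with PBS and at 3734 to 5573 with rIL-13, without overlap and with a log2 fold change of -0.59 (SE 0.18, edgeR adjusted p = 0.383). With rIL-4 it was at 5592 to 7627 CPM, a range that held that of PBS.

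Export was represented by ferroportin, the only known iron exporter of mammalian cells. Slc40a1, at chr1:45908068-45926523, fell in macrophages with both cytokines. It was at 31.1, 24.9 and 22.3 CPM with PBS, at 10.3, 13.7 and 7.62 with rIL-13 and at 3.85, 6.55 and 6.38 with rIL-4, so that the 3 groups did not overlap. With rIL-4 it was 4.68-fold lower (log2 fold change -2.23, SE 0.27, edgeR adjusted p = 0.000617) and with rIL-13 2.46-fold lower (log2 fold change -1.30, SE 0.26, adjusted p = 0.0228). Without 1 mouse the rIL-4 call held in 6 of 6 fits and the rIL-13 call in 1 of 6 (without mouse 6), with log2 fold changes of -1.53 to -1.13 and adjusted p between 0.0134 and 0.0872. With all 18 libraries in 1 model the rIL-13 value was not DE (adjusted p = 0.346). Microglia held more Slc40a1 than macrophages in all 3 treatments, and microglia markers moved with it in the macrophage libraries. Their sum was 2943 to 4339 CPM with PBS, 1205 to 2437 with rIL-13 and 498 to 876 with rIL-4, with none of the 10 markers at 0 in any library. Their part in the Slc40a1 result was not tested.

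In microglia Slc40a1 was at 170, 64.4 and 86.5 CPM with PBS, at 126, 18.3 and 117 with rIL-13 and at 68.8, 96.7 and 91.8 with rIL-4. The groups overlapped, and the library of mouse 6 stood far below the other rIL-13 libraries. Its microglia markers summed to 2902 CPM, against 7625 and 5562 in the other rIL-13 microglia libraries. Its fibroblast and pericyte markers summed to 8260 CPM, against 1915 and 1326. This library also had the lowest Tfrc and Slc11a1 and the highest Fth1 to Ftl1 ratio of its group. The part of these markers in its values, Slc40a1 among them, was not tested. The log2 fold changes were -0.29 with rIL-4 (SE 0.60) and -0.28 with rIL-13 (SE 0.60), with edgeR adjusted p of 0.909 and 1.00.

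**Figure D4:**
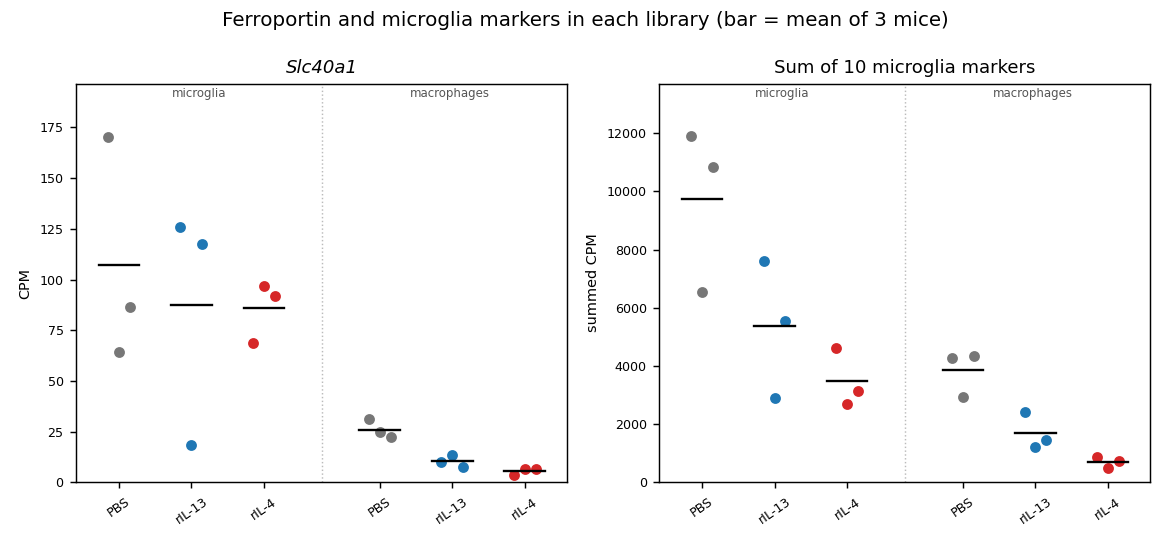
Slc40a1 (left, CPM) and the sum of 10 microglia markers (right, summed CPM) in each library. Points are mice and bars are means of 3. In macrophages both fall from PBS through rIL-13 to rIL-4, with Slc40a1 at 22.3 to 31.1, 7.62 to 13.7 and 3.85 to 6.55 CPM.

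Iron uptake moved the other way at Tfrc, the receptor for iron-loaded transferrin, at chr16:32608920-32632794. In macrophages Tfrc was at 31.1, 20.8 and 18.1 CPM with PBS, at 275, 46.5 and 134 with rIL-13 and at 221, 97.2 and 181 with rIL-4. All 6 cytokine libraries lay above all PBS libraries. Endothelial markers summed to 51.3 to 65.4 CPM in the PBS macrophages, 152 to 221 with rIL-13 and 238 to 438 with rIL-4, mostly through Pecam1 (7.53 to 9.98 CPM with PBS, 146 to 326 with rIL-4), while Cldn5 and Cdh5 were at most 3.39 and 1.22 CPM in all 9 macrophage libraries. Their part in the Tfrc result was not tested. Tfrc rose 7.14-fold with rIL-4 (log2 fold change 2.84, SE 0.56, edgeR adjusted p = 0.00849) and 6.54-fold with rIL-13 (log2 fold change 2.71, SE 0.56, adjusted p = 0.0256). The rIL-13 libraries were widely spread, and that call held in 1 of the 6 fits without 1 mouse (mouse 6), with adjusted p between 0.00238 and 0.116. The log2 fold change then ranged from 1.97, without mouse 5, to 3.15, without mouse 6. In microglia Tfrc was at 66.0, 26.3 and 30.9 CPM with PBS, at 123, 29.3 and 70.8 with rIL-13 and at 90.8, 161 and 211 with rIL-4. The rIL-4 libraries lay above PBS and the rIL-13 libraries overlapped it. The log2 fold changes were 1.93 with rIL-4 (SE 0.55, edgeR adjusted p = 0.121) and 0.87 with rIL-13 (SE 0.53, adjusted p = 0.867). In both cell types mouse 6 had the lowest Tfrc of the rIL-13 mice and mouse 5 the highest.

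Slc11a1 encodes NRAMP1, which moves divalent metals out of the phagosome, and lies at chr1:74375195-74386062. It fell in macrophages, from 634, 719 and 697 CPM with PBS to 436, 411 and 448 with rIL-13 and 345, 269 and 292 with rIL-4. The 3 groups did not overlap and each was narrow. The log2 fold change was -1.18 with rIL-4 (SE 0.14, edgeR adjusted p = 0.000524) and -0.66 with rIL-13 (SE 0.14, adjusted p = 0.0265). The rIL-13 call was lost in each of the 6 fits without 1 mouse, at log2 fold changes of -0.72 to -0.61 and adjusted p between 0.0507 and 0.106, and with all 18 libraries in 1 model (adjusted p = 0.483). In microglia it was at 158 to 181 CPM with PBS, 58.7 to 173 with rIL-13 and 75.6 to 176 with rIL-4, and the groups overlapped.

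Slc11a2 encodes DMT1, which carries ferrous iron across the cell and endosome membranes, and lies at chr15:100387898-100425072. Its macrophage libraries lay between 20.3 and 34.3 CPM in all treatments, with log2 fold changes of 0.04 (rIL-4, SE 0.20, of the other sign under the size factors of DESeq2) and -0.05 (rIL-13, SE 0.20). In microglia it was at 17.1 to 22.8 CPM with PBS, 19.0 to 29.98 with rIL-13 and 12.4 to 17.3 with rIL-4. The rIL-4 libraries lay below all rIL-13 libraries, and the log2 fold change between them was -0.70 (SE 0.26, edgeR adjusted p = 0.389).

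Steap4, a ferric and cupric reductase encoded at chr5:7960457-7982213, was the lowest of the 10 genes and varied most between mice. In rIL-13 microglia it was at 1.75, 54.9 and 14.0 CPM, and in rIL-13 macrophages at 1.25, 17.7 and 2.39, with mouse 6 the highest in both. The same mouse had the highest summed neutrophil markers of the rIL-13 macrophages (3174 CPM against 545 and 587) and the highest fibroblast and pericyte markers of the microglia libraries (8260 CPM), and their part in the Steap4 values was not tested. In rIL-4 microglia it had 0 counts in mice 8 and 10 and 8.07 CPM in mouse 9. PBS libraries were at 5.31 to 10.3 CPM in microglia and 3.53 to 11.3 in macrophages, and rIL-4 macrophages at 1.64 to 3.13. With rIL-4 the macrophage groups did not overlap, with a log2 fold change of -1.49 (SE 0.86, edgeR adjusted p = 0.295). No comparison of Steap4 passed the threshold in the fits that used every mouse without pairing.

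The second question was how the 2 cell types differed. Under PBS, 8 of the 10 genes were DE between microglia and macrophages of the same 3 mice (40.9% of all genes were). Of the 10, 1 gene (Slc40a1) was higher in microglia (24.5% of all genes), and 7 were lower (16.3%). The groups did not overlap in 8 of the 10 (54.0% of all genes). Slc40a1 was at 64.4 to 170 CPM in PBS microglia and 22.3 to 31.1 in PBS macrophages (log2 fold change 2.00, SE 0.34, edgeR adjusted p = 0.00167). Slc11a1 was 4.14-fold lower in microglia (log2 fold change -2.05, SE 0.11, adjusted p = 4.87e-06). Both ferritin chains were 2.72-fold lower (log2 fold change -1.45 for Fth1 and -1.44 for Ftl1) and Hmox1 2.22-fold lower (log2 fold change -1.15, SE 0.14, edgeR adjusted p = 0.000278). Blvra, Blvrb and Slc11a2 were lower by 1.81-fold, 1.95-fold and 1.46-fold. With mouse as a replicate block Tfrc was also DE, 0.70 higher in microglia on the log2 scale (SE 0.18, edgeR adjusted p = 0.0190), against 0.77 (adjusted p = 0.125) without the block. Without mouse 3 the count of 8 dropped to 5, and Slc11a2 was not DE in any of the 3 fits without 1 mouse.

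With rIL-13, 7 of the 10 genes were DE between the cell types (26.7% of all genes), and with rIL-4, 5 of the 10 (23.4%). With rIL-13, 1 gene was higher in microglia and 6 lower, beside 17.2% and 9.46% of all genes, and 7 genes did not overlap (45.3% of all genes). With rIL-4, 1 was higher and 4 lower, beside 13.4% and 9.97%, and 7 did not overlap (41.5%). The Slc40a1 difference was 8.38-fold with rIL-13 (log2 fold change 3.07, SE 0.67, edgeR adjusted p = 0.0130) and 15.6-fold with rIL-4 (log2 fold change 3.97, SE 0.28, adjusted p = 0.000110). With the replicate block the rIL-13 value missed the threshold (adjusted p = 0.0502). Without 1 mouse the rIL-13 log2 fold change ranged from 2.61, without mouse 7, to 3.76, without mouse 6, and it was DE in 1 of 3 fits (without mouse 6), with adjusted p up to 0.149. Slc11a1 was lower in microglia by 3.64-fold and 2.39-fold, and Ftl1 by 2.93-fold and 1.89-fold. Slc11a2 was 2.13-fold lower with rIL-4 (edgeR adjusted p = 0.0138), but it was not DE in any of the 3 fits without 1 mouse (adjusted p between 0.0575 and 0.118). Fth1 was 2.00-fold lower with rIL-13 and 1.43-fold lower with rIL-4, the latter not DE by edgeR (adjusted p = 0.126) but DE with the block (adjusted p = 0.0325). Hmox1 was 3.09-fold lower with rIL-13 (edgeR adjusted p = 0.00115) and 1.52-fold lower with rIL-4 (adjusted p = 0.140, and 0.0209 with the block). In the same blocked fits Tfrc was 0.90 lower on the log2 scale in rIL-13 microglia (adjusted p = 0.0133) and Steap4 1.62 higher (adjusted p = 0.0453), while Blvra with rIL-4 was no longer DE (adjusted p = 0.0589, against 0.0362). The counts fell to 1 without mouse 7 (rIL-13) and without mouse 10 (rIL-4), to 4 without mouse 5 and to 2 without mouse 8.

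Whether the 2 cell types answered a cytokine to different degrees was tested as an interaction over all 18 libraries. None of the 10 genes was DE by edgeR for rIL-4 (0.992% of all genes were, 0.490% in the higher and 0.502% in the lower direction) or for rIL-13 (0.0242%, with 0.00605% higher and 0.0181% lower). For rIL-4, 3 of the 10 had an unadjusted p under 0.05, as did 2050 of all 16535 genes, and DESeq2 called 1 of the 10 among 689 genes in all. That gene was Fth1, whose log2 fold change was 0.88 less negative in microglia than in macrophages (SE 0.27, edgeR adjusted p = 0.168). With mouse as a block the difference was 0.89 (SE 0.18, adjusted p = 0.0454), and DESeq2 called it as well. The other values were 0.80 for Blvrb (SE 0.27, edgeR adjusted p = 0.193) and 1.90 for Slc40a1 (SE 0.72, adjusted p = 0.265). For rIL-13, 1 of the 10 had an unadjusted p under 0.05, as did 964 of all genes. It was Tfrc, at -1.84 (SE 0.82, edgeR adjusted p = 0.787), and DESeq2 called 0 of the 10 and 154 in all. The absence of DE calls in microglia beside those in macrophages is therefore not a shown difference for 9 of the 10 genes, and for Fth1 it depends on the model.

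The 10 genes were set beside 74 other genes of iron and heme handling, of which 60 were tested in macrophages and 66 in microglia. With rIL-4 macrophages had 8 of the 60 higher and 8 lower, 26.7% beside 14.0% of all genes, with a median log2 fold change of 0.09 against 0.02 over all genes. With rIL-13, 4 were higher and 1 lower, 8.33% beside 4.19% of all genes. The largest change was at Cd163, the receptor that takes up hemoglobin bound to haptoglobin. Cd163 was at 4.98, 8.36 and 4.198 CPM with PBS, at 170, 613 and 268 with rIL-13 and at 165, 700 and 480 with rIL-4 in macrophages. It rose 76.5-fold with rIL-4 (log2 fold change 6.26, SE 0.67, edgeR adjusted p = 0.000336) and 60.2-fold with rIL-13 (log2 fold change 5.91, SE 0.66, adjusted p = 0.00142). Both calls held in all 12 alternative fits, in which the rIL-13 log2 fold change ranged from 5.25 (without mouse 6) to 6.25 and the rIL-4 one from 5.78 to 6.66. Astrocyte markers in these libraries summed to 23.1 to 29.2 CPM with PBS, 64.3, 406 and 114 with rIL-13 and 66.0, 510 and 181 with rIL-4, where the order of mice within each cytokine group was that of Cd163. Nearly all of that rise was Gja1, at 5.43 to 7.63 CPM with PBS and 48.3 to 491 with the cytokines, while Gfap was at 5.68 CPM or less and Aqp4 at 0.381 or less in all 9. Their part in the Cd163 result, like that of the endothelial markers, was not tested.

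Hfe, whose product binds the transferrin receptor, was at 61.0, 61.9 and 69.2 CPM in PBS macrophages, at 213, 187 and 192 with rIL-13 and at 217, 221 and 241 with rIL-4. The groups were narrow and far apart, with log2 fold changes of 1.82 (rIL-4, SE 0.12, edgeR adjusted p = 1.87e-05) and 1.63 (rIL-13, SE 0.12, adjusted p = 6.35e-05). Trf, which encodes transferrin, rose 2.14-fold with rIL-4 (edgeR adjusted p = 0.00187) and 1.84-fold with rIL-13 (adjusted p = 0.0149). Cisd1, an iron-sulfur protein of the outer mitochondrial membrane, rose 3.703-fold and 2.44-fold (adjusted p = 0.00160 and 0.0256). Slc25a37, the mitochondrial iron importer mitoferrin 1, fell 2.92-fold and 2.40-fold (adjusted p = 0.00302 and 0.0215). The rIL-13 calls of Trf, Cisd1 and Slc25a37 held in 3, 2 and 2 of the 6 fits without 1 mouse. With all 18 libraries in 1 model Slc25a37 was not DE with either cytokine (adjusted p = 0.0683 and 0.302).

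**Figure D5:**
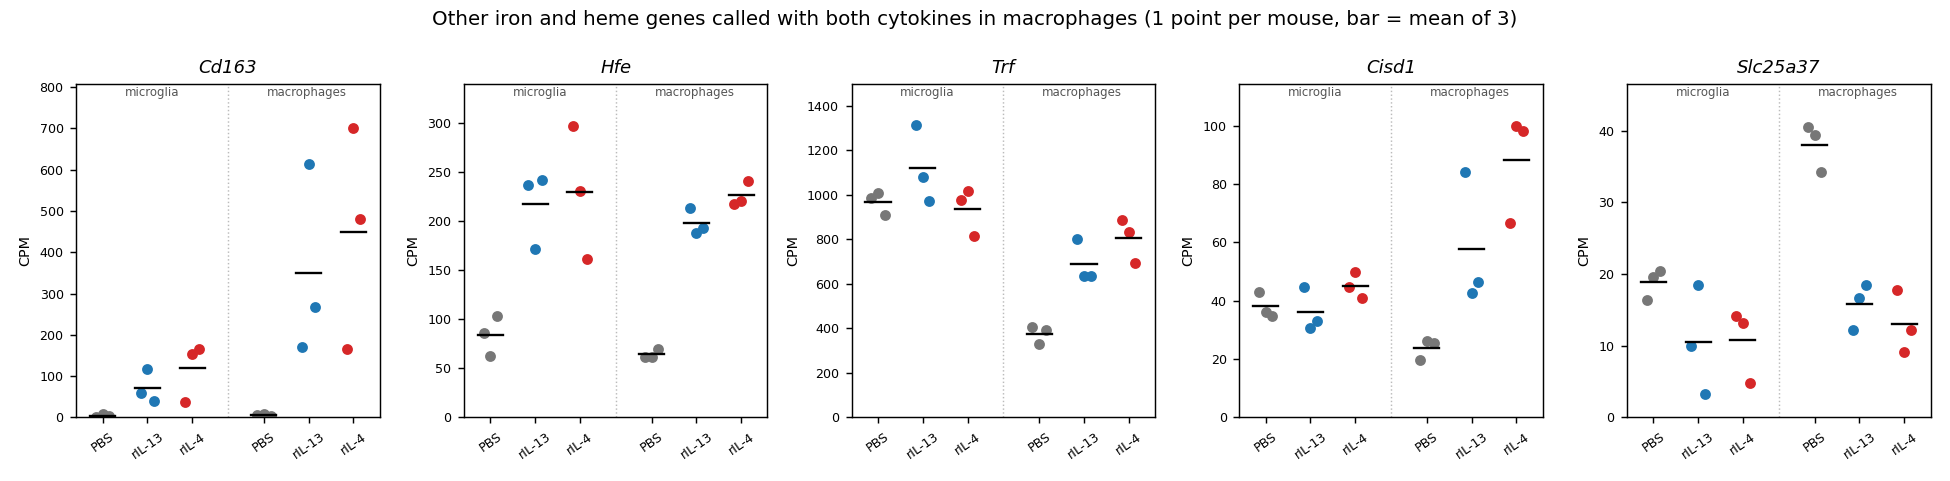
Level (y axis, CPM, linear from 0) of the 5 other iron and heme genes that were DE with both cytokines in macrophages, in each library by treatment and cell type (x axis). Points are mice and bars are means of 3. Cd163 and Hfe stand above PBS in all cytokine libraries of both cell types, with Cd163 at 37.1 CPM or more against at most 8.36.

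Another 3 of the named genes fell with rIL-4 in macrophages, and none of them was DE by edgeR between rIL-4 and rIL-13. Slc22a17, a receptor for lipocalin 2, fell from 1.16 to 2.15 CPM to 0.157 to 0.256, with 6 to 10 counts per rIL-4 library (log2 fold change -3.14, SE 0.48, edgeR adjusted p = 0.00227). Slc46a1, a heme and folate carrier, fell 3.34-fold (adjusted p = 0.00311). Both were higher in PBS microglia, at 10.9 to 16.3 CPM for Slc22a17 and 37.3 to 53.6 for Slc46a1, as was Slc39a8 (a zinc and iron importer that also fell, at 39.97 to 57.5 CPM against 8.72 to 14.1 in PBS macrophages), and microglia markers in the macrophage libraries summed to 2943 to 4339 CPM with PBS and 498 to 876 with rIL-4. Their part in these values was not tested. Ltf, lactoferrin, a product of neutrophil granules, was at 45.8 to 71.8 CPM with PBS and 6.83 to 14.3 with rIL-4 (log2 fold change -2.60, SE 0.44, edgeR adjusted p = 0.00346, and 0.554 with all 18 libraries in 1 model). Neutrophil markers summed to 952 to 1619 CPM in PBS macrophages and 256 to 905 in rIL-4 macrophages, with none of 9 at 0, and their part in the Ltf value was not tested. Further calls, named after their values were seen, included Steap3, Pcbp2 and Aco1 (log2 fold changes of 0.54 to 0.88) and Slc48a1, Por, Slc39a8 and Nfe2l2 (log2 fold changes of -0.54 to -1.33). Without 1 mouse, Slc48a1 and Slc39a8 were DE in 6 of 6 fits, Steap3 and Pcbp2 in 4, and Por, Aco1 and Nfe2l2 in 1, and the last 3 were not DE with all 18 libraries in 1 model. Aco1 encodes iron regulatory protein 1, which binds the elements printed above, and Nfe2l2 encodes NRF2, an activator of Hmox1 and of the ferritin genes.

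In rIL-4 microglia 3 of 66 other genes were DE, 4.55% beside 2.22% of all genes. Cd163 rose from 1.83, 7.65 and 3.61 CPM to 37.1, 153 and 167 (log2 fold change 4.79, SE 0.75, edgeR adjusted p = 0.0152), and Hfe from 62.1 to 103 CPM to 161 to 297 (log2 fold change 1.48, SE 0.27, adjusted p = 0.0268). Bmp6, a signal for hepcidin in the liver, was at 0 counts in all rIL-4 libraries and at 31 to 119 counts with PBS, at least 24.4-fold lower against a floor of 3 counts per library (edgeR adjusted p = 0.0493). Over the alternative fits the log2 fold change of Cd163 ranged from 4.42 to 5.46 (without PBS mouse 2). Without 1 mouse, the calls of Cd163, Hfe and Bmp6 held in 4, 1 and 0 of 6 fits. Monocyte and macrophage markers, a list that includes Chil3, summed to 34174 to 48236 CPM in rIL-4 microglia against 3336 to 5208 with PBS, and fibroblast and pericyte markers to 233 to 1608 CPM against 2595 to 3752. Bmp6 was highest in the rIL-13 microglia of mouse 6 (5.43 CPM), the library with 8260 CPM of the latter markers. The part of these cells in the values was not tested. In rIL-13 microglia Cd163 was at 58.0, 118 and 40.4 CPM and Hfe at 172 to 242, also above every PBS library. With rIL-13 none of the 66 was DE by edgeR, 6 had an unadjusted p under 0.05 (1208 of all 15566 genes) and DESeq2 called 3 (322 of all genes). Between the 2 cytokines none was DE by edgeR in either cell type, with 6 (microglia) and 11 (macrophages) at an unadjusted p under 0.05 and 4 called by DESeq2 in each. Over all genes 1773 and 1513 had an unadjusted p under 0.05, and DESeq2 called 557 and 420.

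Between the cell types, 39 of 66 of these genes were DE under PBS, 21 higher and 18 lower in microglia (59.1% beside 40.9% of all genes). Cp, which encodes ceruloplasmin, the ferroxidase that works with ferroportin, was at 69.5 to 157 CPM in PBS microglia and 0.519 to 1.501 in PBS macrophages. Abcg2, an exporter of porphyrins and other substrates, was 10.2-fold higher in microglia, and Por, the reductase that feeds electrons to heme oxygenase, 5.18-fold lower. Slc48a1, which moves heme out of the phagolysosome, was 2.71-fold lower. Flvcr2 was at 9.65 to 31.2 CPM in PBS microglia and had 1 to 7 counts per PBS macrophage library. Cp, Abcg2 and Flvcr2 were higher in microglia with each cytokine as well. In all, 12 of 62 genes were higher and 8 lower in microglia with rIL-13 (32.3% beside 26.7% of all genes), and 9 of 60 higher and 11 lower with rIL-4 (33.3% beside 23.4%). Without 1 mouse the 39 calls under PBS fell to between 30 and 34. The 20 calls with rIL-13 then ranged from 7 (without mouse 7) to 20, and the 20 with rIL-4 from 13 (without mouse 9) to 15. Hif1a, an oxygen-sensitive transcription factor, was 3.23-fold lower with rIL-13 and 2.43-fold lower with rIL-4, and Hp, which encodes haptoglobin, was 25.8-fold lower with rIL-4 (log2 difference -4.69, and -3.61 without mouse 9). Hp was at 37.6, 112 and 47.9 CPM in rIL-4 macrophages, where neutrophil markers summed to 256, 905 and 472 CPM in the same order of mice, and at 3.05, 0.861 and 3.67 CPM in rIL-4 microglia, where they summed to 113 to 182. The part of neutrophils in the Hp value was not tested. Por, Slc48a1 and Lrp1, a receptor for heme bound to hemopexin, were 3.63-fold, 2.61-fold and 2.65-fold lower with rIL-13. Cp is also known from astrocytes and Abcg2 from endothelium, and fibroblast and pericyte markers were at 2595 to 3752 CPM in the PBS microglia libraries. Their part in these values was not tested. Endothelial markers summed to 944 to 2030 CPM there and astrocyte markers to 119 to 223, against 51.3 to 65.4 and 23.1 to 29.2 in PBS macrophages.

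Genes with a pattern like that of a member were sought by Pearson correlation of log2 CPM, centred within each cell type, over 18 libraries and 13009 genes, as a description that treatment and shared libraries shape. Fth1 was most like Prdx1 (r = 0.958), a peroxidase of the antioxidant response, and Gas6 (r = 0.911). Slc11a1 was most like Capn3 (r = 0.939), Slc40a1 like Lrch1 (r = 0.928) and Tfrc like Sft2d2 (r = 0.923). Hmox1 was most like Gcnt1 (r = 0.895) and Msr1 (r = 0.888), a scavenger receptor. Ftl1 was most like its own copy Ftl1-ps1 (r = 0.928), with which it shares reads. Steap4 was most like Ugt1a6a (r = 0.911) and Nqo1 (r = 0.887). Blvrb was most like Card19 (r = 0.908), Blvra like Zfp991 (r = 0.859) and Slc11a2 like 5730409E04Rik (r = 0.846). Among the members themselves r was 0.889 for Fth1 and Blvrb and 0.837 for Fth1 and Hmox1 over the 18 libraries, but Fth1 and Hmox1 had the higher r within each cell type (0.965 against 0.937 in macrophages and 0.747 against 0.646 in microglia, 9 libraries each). Tfrc ran against Fth1 (r = -0.688 over 18 libraries, -0.714 in macrophages and -0.667 in microglia).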

How the data were processed

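Microglia and macrophages of 9 mice gave 18 SMART-seq2 libraries, which are full-length, not stranded and without molecular identifiers. Per the submitters' processing notes the authors aligned reads to GRCm38 with STAR 2.5.3a and quantified genes with RSEM 1.3.0. They deposited expected counts per gene as whole numbers, without normalization. The annotation release is not given in the sources used here. Identifiers were matched to GENCODE M21, 50604 of 53465 with their version and 53274 without it, and Fth1 and Tfrc matched without it.

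Counts were tested with edgeR 4.0.16 in R 4.3.3 (TMM scaling, filterByExpr, quasi-likelihood test, Benjamini-Hochberg adjustment over all genes tested, threshold 0.05). Treatments were compared in 1 model of the 9 libraries of a cell type, cell types in the 6 libraries of a treatment, and the interaction in all 18. CPM used TMM factors over 18 libraries. Counting intervals were not given, because amplified reads are not independent molecules, and the spread over 3 mice sets the precision. A gene's SE was derived from its fold change and F statistic. The ferritin ratio and share were compared by exact permutation tests. Some of the fits were also run on simulated counts, and the outcome is not reported here. The alternatives were DESeq2 1.42.0, DESeq2 size factors, no filter, a filter of 10 counts in each library, fewer or more libraries in the model, leaving out each mouse, and the mouse as replicate block. Both cell types came from the same mouse, which gives the pairing, and the deviations of the 2 libraries of a mouse correlated at r = 0.0436 to 0.167 over 16535 genes.

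The members and the lists of other genes and markers were chosen with earlier results of these data known. All members are named, and of the other iron and heme genes the 8 with the lowest p among those DE in a comparison, with exceptions stated where they occur. The 2 genes most like each member were taken by correlation. No 2 libraries held identical values. A few genes of these lists are not reported here.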

Additional observations from a re-analysis of the deposited data

Results flagged for a closer look

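For 3 of the other iron and heme genes the response to rIL-4 differed between microglia and macrophages by a test of the difference itself, an interaction in edgeR over all 18 libraries. Trf rose in rIL-4 macrophages, from 329 to 406 CPM with PBS to 695 to 889, while microglia were at 910 to 1010 and 816 to 1017 CPM, a difference in response of -1.15 on the log2 scale (SE 0.22, edgeR adjusted p = 0.0207). Cisd1 rose in macrophages from 19.6 to 26.1 CPM to 66.5 to 100.0 and was at 34.8 to 43.1 and 40.8 to 49.7 CPM in microglia, a difference of -1.65 (SE 0.35, adjusted p = 0.0348). Slc22a17 fell in macrophages and was at 10.9 to 16.3 and 9.54 to 13.4 CPM in microglia, a difference of 2.91 (SE 0.63, adjusted p = 0.0374). Microglia markers in the macrophage libraries summed to 2943 to 4339 CPM with PBS and 498 to 876 with rIL-4, and their part in this difference was not tested. The direction was kept in every alternative fit, but without 1 mouse the call of Trf held in 1 of 6 fits and those of Cisd1 and Slc22a17 in 0 of 6.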

How the results depend on the processing

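The 6 calls of rIL-4 macrophages against PBS stood in each fit without 1 mouse (range 6 to 6). The rIL-13 macrophage count of 3 ranged from 0 to 2 without 1 mouse and was 5 by DESeq2. Without 1 mouse the cell type counts ranged from 5 to 7 (PBS, 8 with every mouse), 1 to 5 (rIL-13, 7) and 1 to 4 (rIL-4, 5). In microglia DESeq2 raised the count of 0 to 3 with rIL-4 and to 2 with rIL-13, and the rIL-13 count was 1 with no filter, with the stricter filter of 10 counts and in the fit of all 18 libraries. For rIL-4 against rIL-13 in macrophages DESeq2 called 2. For the interaction with rIL-4 DESeq2 and the replicate block each called 1. The replicate block changed no other call of a member than those given. The 1 value that passed the threshold with its sign turned was Steap4 between cell types with rIL-4, at -9.09 (edgeR adjusted p = 0.0333) without replicate 9, whose microglia library holds all the Steap4 counts of that group, against 0.32 (adjusted p = 0.938) with every mouse. Without 1 mouse that value ranged from -9.09 to 0.85. Values that were not DE also turned sign, such as Slc40a1 in microglia with rIL-4 (-0.56 to 0.20 without 1 mouse) and Steap4 in macrophages with rIL-13 (-1.74 to 0.96). Without TMM factors the median log2 difference of all genes between microglia and macrophages moved from 0.07, 0.02 and -0.06 to 0.36, 0.45 and 0.14 (PBS, rIL-13, rIL-4), and from -0.08 to -0.20 for rIL-4 against PBS in microglia, and every called change of a member kept its sign. Counts over all genes ranged from 1041 to 2660 for rIL-4 macrophages (1900), 199 to 1163 for rIL-13 macrophages (570), 75 to 1215 for rIL-4 microglia (345), 22 to 322 for rIL-13 microglia (57), 0 to 557 and 1 to 420 between cytokines in microglia (6) and macrophages (34), 4237 to 6512, 1197 to 4868 and 1798 to 4569 between cell types (6014, 3710, 3174 for PBS, rIL-13, rIL-4), and 18 to 689 and 0 to 154 for the interactions with rIL-4 (164) and rIL-13 (4), with DESeq2 the highest outside the rIL-13 and rIL-4 cell type counts. Of the other iron and heme genes, 10 to 18 were called in rIL-4 macrophages (16), 2 to 7 in rIL-13 macrophages (5) and 0 to 5 in rIL-4 microglia (3). Between cell types 30 to 42, 7 to 30 and 13 to 23 of them were called with PBS (39), rIL-13 (20) and rIL-4 (20). These alternatives for the other genes were chosen after seeing the data. The 3 mice a group, amplified cDNA and 1 time point limit all values, and low genes such as Steap4 most. The cause of these changes was not tested.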
